A study of Homo sapiens with 6 samples.

Results

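Lipid droplet storage and fat oxidation were followed through 10 genes: the droplet coat proteins PLIN2 and PLIN3, the droplet protein HILPDA, the triglyceride synthesis enzymes DGAT1 and DGAT2, the lipases PNPLA2, MGLL and LIPA, and the carnitine acyltransferases CPT1A and CPT2. The genes were chosen by name, and every probe set annotated with exactly 1 of these symbols was taken, which gave 23 of the 44988 probe sets tested. Arrays were hybridised with RNA of 786O cells, an established line derived from a human clear cell carcinoma of the kidney, that had received by lentivirus either a short hairpin RNA (shRNA) targeting PLEKHO1 (shPLEKHO1, 3 arrays) or a negative control shRNA (shNC, 3 arrays). All cells, controls included, were of this line and had received a lentivirus, and the labels give neither the hairpin sequence nor the number of hairpins used. The labels do not say whether replicates came from separate cultures. All p-values therefore reflect only how far these arrays differ, which could be technical, and having 3 arrays a group limits the precision.

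Cells store surplus fatty acids as triglycerides in lipid droplets, whose surface is coated by perilipins. DGAT enzymes add the last fatty acid to make triglyceride, and PNPLA2 (also called ATGL) removes the first one when fat is released, followed by hormone-sensitive lipase and MGLL. LIPA breaks down lipids that reach the lysosome, and CPT1A and CPT2 carry long fatty acids into mitochondria for oxidation. Clear cell renal carcinoma is named for cells whose stored lipid and glycogen wash out during staining. In this tumour type, loss of VHL leaves hypoxia-inducible factors active, and both PLIN2 and HILPDA are known to be induced by these factors. 786O cells lack working VHL and make the factor EPAS1.

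PLEKHO1 itself was lower where it was targeted. Its intensities were 110.3, 116 and 97.4 with shPLEKHO1, against 135, 143 and 126 with shNC, and the groups did not overlap. It fell by 0.32 ± 0.08 on the log2 scale (SE, n = 3 each, limma adjusted p = 0.0124). By exact two-sided permutation p was 0.1, and 3 against 3 arrays cannot give a smaller one. In bulk RNA such as this, a lower level in every cell cannot be told apart from fewer cells with a high one. Array medians lay between 55.7 and 57.1. Of the 8 measured markers of the renal epithelium and of this line, 3 rose (KRT8, KRT18 and EPAS1) and 3 fell (PAX8, PAX2 and LHX1), with log2 differences from -0.78 for LHX1 to 0.54 for EPAS1, while VIM and CDH2 did not pass. Of the 5 fat cell markers 1 rose (FABP4, with group means of 28.2 with shPLEKHO1 and 15.9 with shNC). Another fell (CFD, 32.0 with shPLEKHO1 and 41.1 with shNC), and the rest did not pass in limma. Of the 13 markers of blood cells, endothelium and fibroblasts 1 rose (MSR1, with group means of 58.3 with shPLEKHO1 and 35.0 with shNC), and the others did not pass in limma. Each marker was read from its brightest probe set. As means of all their probe sets, MSR1 was at 0.31 instead of 0.73 and LHX1 at -0.42 instead of -0.78, while KRT18 was at 0.53 against 0.52. No marker had a value of 0. Probe sets that match no transcript reached a mean of 2063 in the set with the most GC, and the next highest was 457. VIM (15448 with shPLEKHO1 and 14741 with shNC), CDH2 and KRT8 had both group means above 2063. For the markers below it, these intensities alone do not show which ones the cells expressed. The part of these marker changes in the results below was not tested. The calls of PAX8 without shPLEKHO1 replicate 2 (limma adjusted p = 0.0587), of PAX2 without shNC replicate 1 (0.0552) or replicate 2 (0.0553) and of CFD without shNC replicate 1 (0.0592) were lost.

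Intensities are the deposited linear values. A log2 difference is the shPLEKHO1 mean of log2(intensity + 1) less the shNC mean, after quantile normalization, and is printed with its SE (n = 3 for each shRNA). Probe sets are said to have risen or fallen where limma, adjusted over all 44988 probe sets, gave an adjusted p under 0.05. Probes bind with different strength, so levels of different probe sets are not compared as amounts of RNA, and brighter or dimmer only tells the sets of a gene apart. Probe sets of a gene read transcripts of the same gene and are not independent.

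Small changes in both directions were seen among the 10 genes. PLIN3 and both probe sets of HILPDA fell, 1 of 3 probe sets of PNPLA2 fell, and 1 of 2 probe sets of DGAT1 and the single probe set of CPT2 rose. PLIN2, DGAT2, MGLL, LIPA and CPT1A had no probe set past the threshold in limma, nor one with an unadjusted p under 0.05. In all, 2 of 23 probe sets rose, 4 fell and 17 did not pass. The 6 that passed were 26.1% of the members' probe sets, while 33.0% of all probe sets tested passed (17.3% rose and 15.7% fell), so the share was not above that of the whole table. The groups did not overlap in 9 of the 23 probe sets (39.1%), against 43.0% of all probe sets. The median log2 difference was 0.00 over the 23 and 0.01 over all probe sets, and the members ranged from -0.45 to 0.36.

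**Figure D1:**
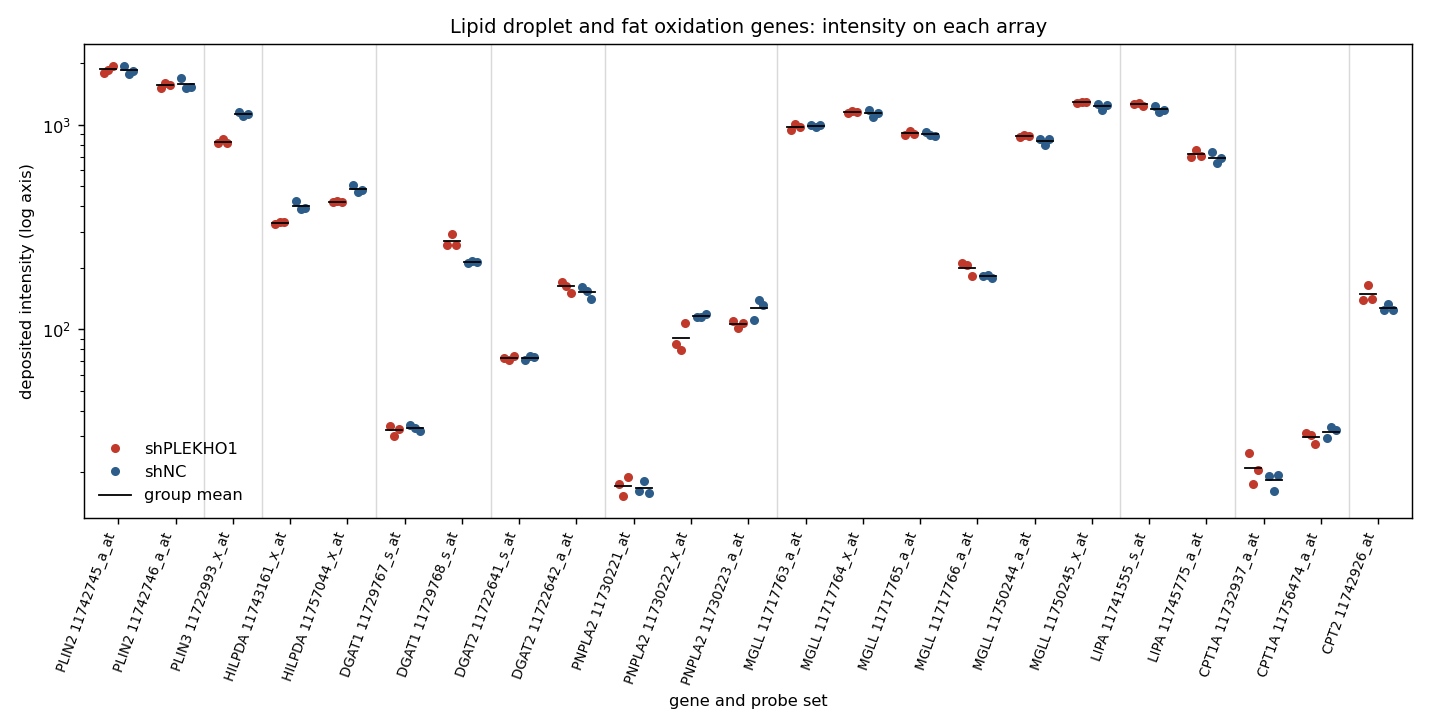
Deposited intensity (log axis) of each of the 23 probe sets on every array, with shPLEKHO1 in red to the left of shNC in blue and a line at each group mean. PLIN3 lies between 816 and 851 on the shPLEKHO1 arrays, below the 3 shNC arrays, while the points of PLIN2 overlap.

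The coat proteins were taken first. PLIN3, also called TIP47, moves from the cytosol onto newly formed droplets. Its single probe set read 816, 851 and 820.1 with shPLEKHO1, against 1155, 1102 and 1127 with shNC. All 3 shPLEKHO1 arrays were below all 3 shNC arrays, and the gap was wide beside the spread within either group. The mean was 829 ± 19.4 with shPLEKHO1 and 1128 ± 26.6 with shNC (SD, n = 3 each). PLIN3 fell by 26.9% (-0.45 ± 0.05 in log2, 95% confidence interval -32.0% to -21.3%, limma adjusted p = 0.000138), the largest difference among the 23 probe sets.

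PLIN2, also called adipophilin, sits on droplets constantly and is degraded when it has none to bind. Its brighter probe set read 1798, 1852 and 1952 with shPLEKHO1, against 1946, 1782 and 1828 with shNC. The other read 1515, 1606 and 1565 with shPLEKHO1, against 1690.4, 1515 and 1538 with shNC. The groups overlapped in both. The log2 differences were 0.00 ± 0.05 (limma adjusted p = 0.964) and -0.04 ± 0.05 (limma adjusted p = 0.654), and the 95% confidence intervals ran from -7.94% to 9.32% and from -10.0% to 5.69%. A fall of PLIN2 of the size seen for PLIN3 lies outside both intervals. Within each array, log2 PLIN3 minus log2 PLIN2 lay between -1.25 and -1.13 with shPLEKHO1 and between -0.75 and -0.68 with shNC, without overlap. Its change of -0.46 between the groups had an exact two-sided permutation p = 0.1, the smallest possible, and 0.1 after Benjamini-Hochberg adjustment over 2 such gene pairs, chosen after their values were seen.

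The 250 bases before the start of these genes are shown because they are the only pair of coat proteins among the members and only 1 of them changed. The sequences are those of RefSeq for GRCh38.p14, printed 5′ to 3′ along the gene. PLIN3 spans chr19:4867668-4867917 and PLIN2 chr9:19127493-19127742, both on the minus strand. Capitals mark ACGTG, or with G as first base GCGTG, on either strand, the core letters that hypoxia-inducible factors are known to bind.
PLIN3: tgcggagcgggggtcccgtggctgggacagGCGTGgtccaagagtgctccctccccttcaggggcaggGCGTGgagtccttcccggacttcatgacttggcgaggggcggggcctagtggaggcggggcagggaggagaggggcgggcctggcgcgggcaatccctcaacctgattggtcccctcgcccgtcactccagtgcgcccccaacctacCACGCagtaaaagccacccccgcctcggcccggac
PLIN2: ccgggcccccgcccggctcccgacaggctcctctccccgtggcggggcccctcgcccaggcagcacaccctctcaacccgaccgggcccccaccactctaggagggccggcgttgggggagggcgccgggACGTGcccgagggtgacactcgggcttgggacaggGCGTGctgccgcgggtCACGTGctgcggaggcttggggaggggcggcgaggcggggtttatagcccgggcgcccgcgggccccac

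The PLIN2 window held ACGTG 3 times and GCGTG once. Of the first, 1 match on each strand overlap in the palindrome CACGTG, which begins 69 bases before the start. The PLIN3 window held GCGTG 3 times and the other motif 0 times. Over 35116 such windows of the same length, ACGTG occurred in 18.5%, while GCGTG occurred in 32.2% and the palindrome in 6.34%. A match describes letters only and says nothing of binding. Of the 10 genes, 6 had a window in the table used.

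HILPDA, a small droplet protein induced by hypoxia that inhibits PNPLA2, was lower with shPLEKHO1. Its brighter probe set read 419, 427 and 419 with shPLEKHO1, against 508, 470.0 and 480.4 with shNC. The other read 327, 337 and 335 with shPLEKHO1, against 426, 386 and 394 with shNC. In both, every shPLEKHO1 array was below every shNC array, and the shPLEKHO1 arrays were close together. The brighter set fell by 13.4% (95% confidence interval from -19.6% to -6.73%, limma adjusted p = 0.00913). The other fell by 17.0% (-23.2% to -10.4%, limma adjusted p = 0.00291), and the log2 changes of the 2 sets differed by -0.06, which did not pass (limma adjusted p = 0.595).

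PNPLA2, the lipase that starts triglyceride breakdown, was read by 3 probe sets. The set 11730222_x_at read 85.2, 79.6 and 108 with shPLEKHO1, against 115, 114 and 119 with shNC, and fell by 22.2% (log2 difference of -0.36 ± 0.11, limma adjusted p = 0.0333). The brightest, 11730223_a_at, read 110.3, 101 and 107 with shPLEKHO1, against 112, 139 and 132 with shNC, at -0.25 ± 0.09 (limma adjusted p = 0.0674). In both sets the groups stayed apart, but by a narrow margin set by shPLEKHO1 replicate 3 in the first and shNC replicate 1 in the second. The third set, 11730221_at, read between 15.2 and 18.9 with shPLEKHO1 and between 15.8 and 18.0 with shNC (log2 difference of 0.03 ± 0.08, limma adjusted p = 0.825).

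The call of 11730222_x_at did not hold when any of 5 arrays was left out: the limma adjusted p was 0.0977 without shPLEKHO1 replicate 1, 0.0976 without shPLEKHO1 replicate 2, 0.0738 without shNC replicate 1, 0.0761 without shNC replicate 2 and 0.0929 without shNC replicate 3. The brightest set passed in 6 of 15 alternatives, among them without shNC replicate 1 (log2 difference of -0.35, limma adjusted p = 0.008), with an adjusted p from 0.008 to 0.197. As the mean of its 3 probe sets, PNPLA2 stood at -0.19 ± 0.07 (limma adjusted p = 0.0823).

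RNAs for the inhibitors of PNPLA2 moved in different directions. G0S2, a second inhibitor of PNPLA2, read 1599, 1852 and 1593 with shPLEKHO1, against 1175, 1011 and 1099.7 with shNC. It rose 1.52-fold by its brightest probe set (0.61 ± 0.07, limma adjusted p = 0.000309), and 3 of its 4 probe sets rose. ABHD5, the activator of PNPLA2, named after its values were seen, read 149, 154 and 135 with shPLEKHO1, against 119, 118 and 132 with shNC. It rose by its brightest probe set (0.25 ± 0.07, limma adjusted p = 0.0229), but only 1 of its 6 probe sets rose, and their mean was at 0.06 (limma adjusted p = 0.449). The call was lost without shPLEKHO1 replicate 1 (limma adjusted p = 0.0728) or replicate 2 (0.072), without shNC replicate 1 (0.0726) or replicate 2 (0.0772), and with the replicate number as a block (0.0643). Thus of the inhibitors G0S2 rose and HILPDA fell.

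**Figure D2:**
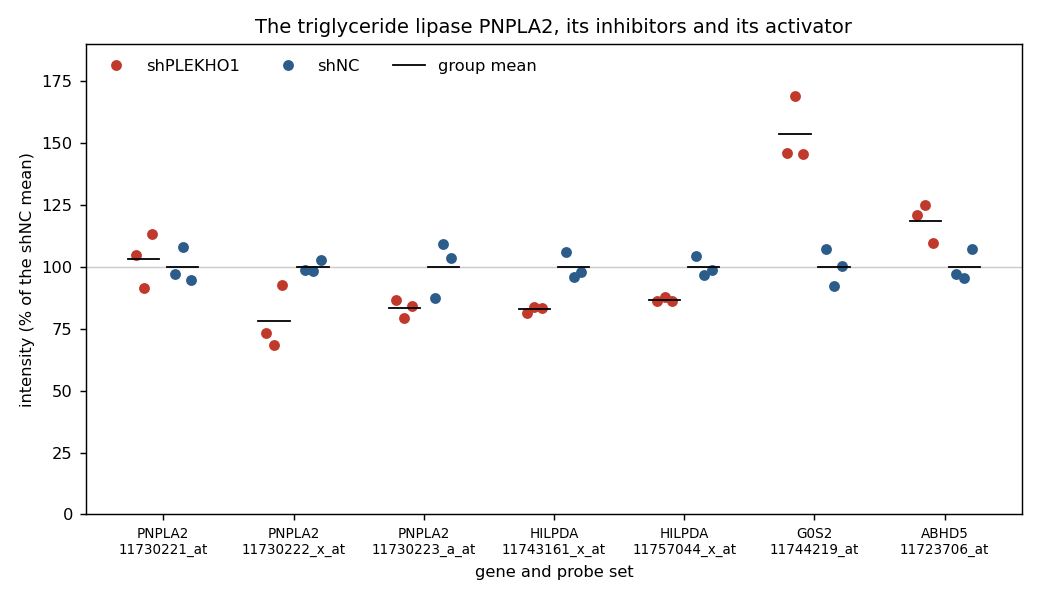
Intensity of PNPLA2, its inhibitors HILPDA and G0S2 and its activator ABHD5 on each array, as a percentage of the mean of the 3 shNC arrays, with shPLEKHO1 in red left of shNC in blue and a line at each group mean. The 3 shPLEKHO1 arrays of G0S2 lie above its shNC arrays, and those of both HILPDA sets lie below.

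MGLL, which releases the last fatty acid from glycerol, was the member with the most probe sets. None of the 6 passed, with log2 differences from -0.04 to 0.15 and adjusted p from 0.132 to 0.998 in limma. Its brightest set read 1284, 1295 and 1298 with shPLEKHO1, against 1270.5, 1188 and 1254 with shNC, so the groups were apart by a small distance (0.07 ± 0.05, limma adjusted p = 0.336). The largest difference was in 11717766_a_at, which read 211, 206 and 182 with shPLEKHO1, against 182, 185 and 179 with shNC. It passed only without shPLEKHO1 replicate 3 (log2 difference of 0.20, limma adjusted p = 0.0497; the alternatives spanned 0.0497 to 0.348). For the set nearest 0 the 95% confidence interval was -7.15% to 7.74%.

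LIPA, the acid lipase of the lysosome, read 1270.1, 1276 and 1231 with shPLEKHO1, against 1235, 1159.5 and 1185 with shNC by its brighter probe set, and the groups overlapped. Its log2 differences were 0.08 ± 0.05 (limma adjusted p = 0.265) and 0.05 ± 0.05 (limma adjusted p = 0.501), with 95% confidence intervals from -2.09% to 13.8% and from -4.38% to 12.5%.

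Of the enzymes that make triglyceride, DGAT1 was higher by 1 of its 2 probe sets. DGAT1 acts in the endoplasmic reticulum on fatty acids from many sources, and DGAT2, an unrelated protein, also works at the droplet surface. The brighter DGAT1 set, 11729768_s_at, read 259.8, 292 and 259.6 with shPLEKHO1, against 211, 215 and 213 with shNC. All shPLEKHO1 arrays were above all shNC arrays, whose spread was small. It rose by 28.2% (0.36 ± 0.06 in log2, 95% confidence interval 17.2% to 40.1%, limma adjusted p = 0.00141). Both DGAT1 sets carry the suffix _s_at. Over all 5276 sets with this suffix 45.8% passed, against 33.0% of all probe sets.

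The dimmer DGAT1 set, 11729767_s_at, read 33.8, 30.2 and 32.6 with shPLEKHO1, against 34.1, 33.0 and 31.8 with shNC, with overlap (log2 difference of -0.04 ± 0.06, limma adjusted p = 0.641). The log2 change of the dimmer set differed from that of the brighter one by -0.40, which passed when tested within arrays (limma adjusted p = 0.018, n = 3 each). It was the only one of 13 such differences between probe sets of a member that did, against 15.2% of 26856 over all genes. Without shNC replicate 1 this difference was -0.34 and did not pass (limma adjusted p = 0.0557; the alternatives spanned 0.00466 to 0.0557), while 1 other did, that of 11730221_at of PNPLA2 from its brightest set (0.38, limma adjusted p = 0.0348, against 0.28 and 0.11 with all arrays). The mean of both DGAT1 sets was at 0.16 ± 0.04 (limma adjusted p = 0.00935).

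DGAT2 read 171, 164 and 151 with shPLEKHO1, against 161, 154 and 141 with shNC by its brighter set, and between 70.9 and 73.7 with shPLEKHO1 and between 70.8 and 74.3 with shNC by the other. The groups overlapped in both. The log2 differences were 0.11 ± 0.07 (limma adjusted p = 0.312) and -0.01 ± 0.05 (limma adjusted p = 0.941). Within arrays, log2 DGAT1 minus log2 DGAT2 by the brighter sets changed by 0.25 between the groups, which did not overlap but nearly touched (lowest 0.60 with shPLEKHO1 and highest 0.60 with shNC; exact two-sided permutation p = 0.1, the smallest possible).

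CPT1A and CPT2 act in sequence on the outer and the inner mitochondrial membrane. CPT1A is the step that limits the entry of long fatty acids, and in clear cell renal carcinoma it is known to be repressed by hypoxia-inducible factors. Its brighter probe set read 31.2, 30.4 and 27.5 with shPLEKHO1, against 29.4, 33.3 and 32.1 with shNC. The other read 24.8, 17.6 and 20.6 with shPLEKHO1, against 19.1, 16.2 and 19.4 with shNC. The groups overlapped in both, and the log2 differences of -0.10 ± 0.06 (limma adjusted p = 0.285) and 0.17 ± 0.11 (limma adjusted p = 0.309) had opposite signs.

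Part of any intensity here may be background. The array holds 23 probe sets that match no transcript, and their means over the 6 arrays ran from 4.8 to 2063, higher with more GC in the probes. All 23 member probe sets had means below the highest of these, GC25. The next highest, GC24, averaged 457, and the median of the background sets was 7.8. Every set of PLIN2, PLIN3 and LIPA had group means above 457, as had the MGLL sets except 11717766_a_at. All other member sets had a group mean below it. For the dim CPT1A sets the nearest were GC17, which averaged 20.5 with shPLEKHO1 and 19.4 with shNC, and GC18, which averaged 31.6 with shPLEKHO1 and 29.7 with shNC. The dimmer DGAT1 set, with means of 32.2 with shPLEKHO1 and 33.0 with shNC, also lay near GC18. The PNPLA2 set 11730221_at, with means of 17.2 with shPLEKHO1 and 16.7 with shNC, lay below GC17. Every background set averaged higher with shPLEKHO1, and the gap was wider at high GC. GC21 averaged 103 with shPLEKHO1 and 93.4 with shNC, GC22 averaged 180 and 163, and GC24 averaged 487 and 426. The group means of CPT2 and of PLEKHO1 lay between GC21 and GC22. The part of this shift in the members' changes was not tested. The GC content of the members' own probes was not used here, so how much of each member's intensity came from its transcript was not tested.

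CPT2 read 138, 165 and 141 with shPLEKHO1, against 124, 133 and 125 with shNC. The groups did not overlap, though shPLEKHO1 replicate 2 stood above the other arrays. CPT2 rose by 16.6% (0.22 ± 0.07 in log2, 95% confidence interval 4.11% to 30.5%, limma adjusted p = 0.0437). It was near the threshold and did not pass without shPLEKHO1 replicate 2 (log2 difference of 0.16, adjusted p = 0.108), without shPLEKHO1 replicate 3 (0.25, adjusted p = 0.0645), without shNC replicate 1 (0.20, adjusted p = 0.12) or without shNC replicate 3 (0.21, adjusted p = 0.122, all in limma), nor with median centring (adjusted p = 0.0525) or without normalization between arrays (0.0638). Over all alternatives the limma adjusted p ranged from 0.0184 to 0.122.

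**Figure D3:**
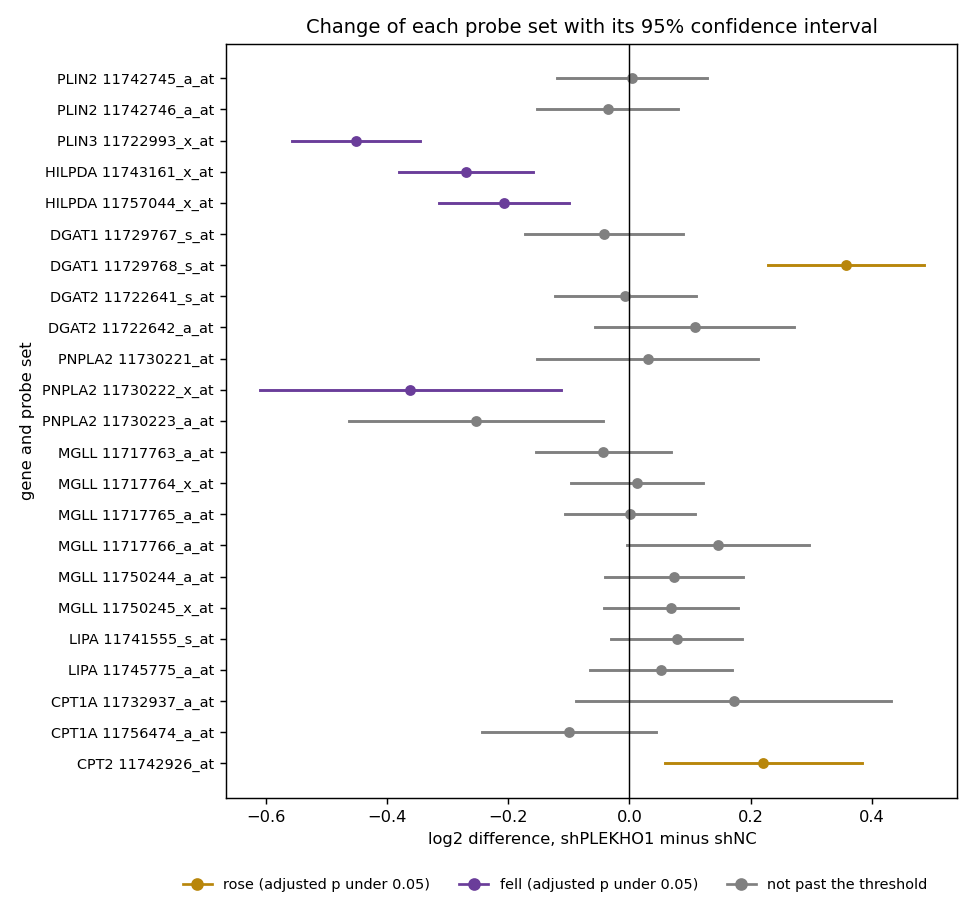
Log2 difference (shPLEKHO1 minus shNC) of each probe set with its 95% confidence interval, coloured by whether it rose, fell or did not pass. PLIN3, both HILPDA sets and 1 PNPLA2 set lie below 0 and 1 DGAT1 set and CPT2 above it, while the 6 MGLL sets lie between -0.04 and 0.15.

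The 4 member probe sets that fell were all of 1 design class. They carry the suffix _x_at, which Affymetrix gives to sets with probes that may also match other transcripts, and so did all probe sets of PLIN3 and HILPDA. Of 6 member sets with this suffix 4 fell, and the other 2, both of MGLL, did not pass. Of the 11 sets with the suffix _a_at, whose probes match several transcripts of 1 gene, 0 passed in limma, and 1, the brightest set of PNPLA2, had an unadjusted p under 0.05. Over all 21696 sets with _a_at, 34.4% passed. Over all 7147 sets with _x_at, 32.7% passed and 16.4% fell, close to the 33.0% and 15.7% of all sets. Its part in the falls was not tested.

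Around the 10 members, 7 lists of genes of lipid handling were counted by gene, each gene read from its brightest probe set. Of all 18132 genes, 17.6% rose and 15.6% fell (33.2% passed), with a median log2 difference of 0.01. Of the members themselves, read the same way, 2 of 10 rose and 2 fell.

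Among 17 genes of the droplet coat and of droplet formation, 5 rose and 2 fell (41.2% passed, median 0.07). AUP1, a droplet protein that also serves protein degradation at the endoplasmic reticulum, was 1.64-fold higher (0.71 ± 0.05), but 1 of its 3 probe sets rose and their mean was at 0.28. RAB18, a small GTPase found on droplets, rose (0.30 ± 0.05) in 8 of its 10 probe sets. LDAF1, the partner of seipin in forming droplets, fell (-0.29 ± 0.05) in both of its sets. TMT1A fell (-0.52 ± 0.09) at a group mean of 10.6 with shPLEKHO1 and 15.4 with shNC, but in 1 of its 3 probe sets, whose mean was at -0.19. PLIN1, the perilipin of fat cells, named after its values were seen, was at -0.08 and did not pass (limma adjusted p = 0.535), with mean intensities of 34.4 with shPLEKHO1 and 36.3 with shNC.

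Of 20 genes of glycerolipid and sterol ester synthesis, 4 rose and 3 fell (35.0% passed, median 0.05). AGPAT5, an acyltransferase that makes phosphatidic acid, read 154, 155 and 157 with shPLEKHO1, against 572, 515 and 548 with shNC. It was 3.47-fold lower (-1.80 ± 0.05, limma adjusted p = 5.25e-07), with 3 of its 4 probe sets down and a mean of -1.07. The phosphatidate phosphatase LPIN1 fell (-0.53 ± 0.06) in 2 of its 3 probe sets, whose mean was at -0.37. SOAT1, which makes cholesterol esters for storage, was 1.54-fold higher (0.62 ± 0.05). It rose in 2 of its 3 probe sets, whose mean was at 0.48. The acyl-CoA synthetase ACSL5 fell by its brightest set (-0.33 ± 0.08), while another of its 4 sets rose and their mean was at 0.00 (limma adjusted p = 0.996). This count rested on single arrays: without shPLEKHO1 replicate 1 or without shPLEKHO1 replicate 3, 4 genes passed instead of 7.

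Of 15 further lipases and their cofactors, 6 rose and 2 fell (53.3% passed, median 0.06). NCEH1, which hydrolyses cholesterol esters and so opposes SOAT1, read 1908, 1998 and 1979 with shPLEKHO1, against 1179, 1046 and 1089.7 with shNC. It was 1.77-fold higher (0.83 ± 0.05, limma adjusted p = 1.01e-05) and rose in all 3 of its probe sets. The phospholipase DDHD1 rose (0.71 ± 0.09) in 3 of 4 sets, and ABHD12, a hydrolase of monoacylglycerol and lysophospholipids, fell (-0.51 ± 0.05) in all 5. G0S2, described above, belongs to this list too.

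Mitochondrial oxidation and the carnitine shuttle held 25 genes, of which 7 rose and 5 fell (48.0% passed, median -0.02). ECI2 (0.41 ± 0.05) and DECR1 (0.42 ± 0.05), which prepare unsaturated fatty acids for oxidation, rose, the first in 1 of 2 probe sets. The like-named ECI1, named after its values were seen, fell (-0.36 ± 0.06, limma adjusted p = 0.00129). HADHB, the beta subunit of the trifunctional protein, rose (0.37 ± 0.05) in all 5 of its sets. HADH, the dehydrogenase for shorter chains, read 337, 347 and 341 with shPLEKHO1, against 494, 476 and 478 with shNC, and fell (-0.50 ± 0.05) in both of its sets. Enzymes of the same cycle thus moved in both directions.

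Of 11 genes of peroxisomal oxidation, 2 rose and 6 fell (72.7% passed, median -0.19). AMACR, a racemase of branched fatty acids, fell (-0.58 ± 0.06, in 1 of 2 sets), the branched-chain oxidase ACOX3 fell (-0.44 ± 0.06), and the thioesterase ACOT8 fell (-0.40 ± 0.06) in 4 of 6 sets. The transporter ABCD3 rose (0.41 ± 0.08) in all 5 of its sets.

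Of 18 genes of fatty acid uptake and binding, 4 rose and 5 fell (9 passed, median -0.04). VLDLR, a receptor for triglyceride-rich lipoproteins, was 1.62-fold lower (-0.70 ± 0.05), and CAV1, the main protein of caveolae, fell (-0.33 ± 0.05) in all 4 of its sets. The fatty acid binding protein FABP5 was 1.55-fold higher (0.63 ± 0.08) by its single probe set, which carries the suffix _x_at. FABP4 rose (0.78 ± 0.09) at 31.2, 24.6 and 28.8 with shPLEKHO1, against 15.1, 14.6 and 18.0 with shNC.

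Of 20 transcriptional regulators of fat use, 3 rose and 7 fell (10 passed, median -0.02). PPARA, which drives genes of fatty acid oxidation, CPT1A among them, read 144, 159 and 157 with shPLEKHO1, against 241, 242 and 245 with shNC. It fell by its brightest set (-0.65 ± 0.05, limma adjusted p = 5.13e-05), with 4 of its 9 sets down and a mean of -0.15. RXRA, the receptor that pairs with it, was 2.17-fold lower (-1.12 ± 0.06) by its brighter set. The other fell too, by 0.34, and the mean of both was at -0.73. The glucose-responsive factor MLXIP fell (-0.76 ± 0.06) in 2 of 4 sets, whose mean was at -0.32. LPIN1, which also acts as a coactivator, is counted here as well.

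EPAS1, which induces PLIN2 and HILPDA in other work and is named here after its values were seen, read 1659, 1859 and 1749 with shPLEKHO1, against 1306, 1083 and 1231 with shNC. It rose (0.54 ± 0.07, limma adjusted p = 0.000437) in both of its probe sets. Beside this, PLIN2 stood at 0.00 and HILPDA fell. Only RNA was measured, and a link between EPAS1 and these genes was not tested.

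**Figure D4:**
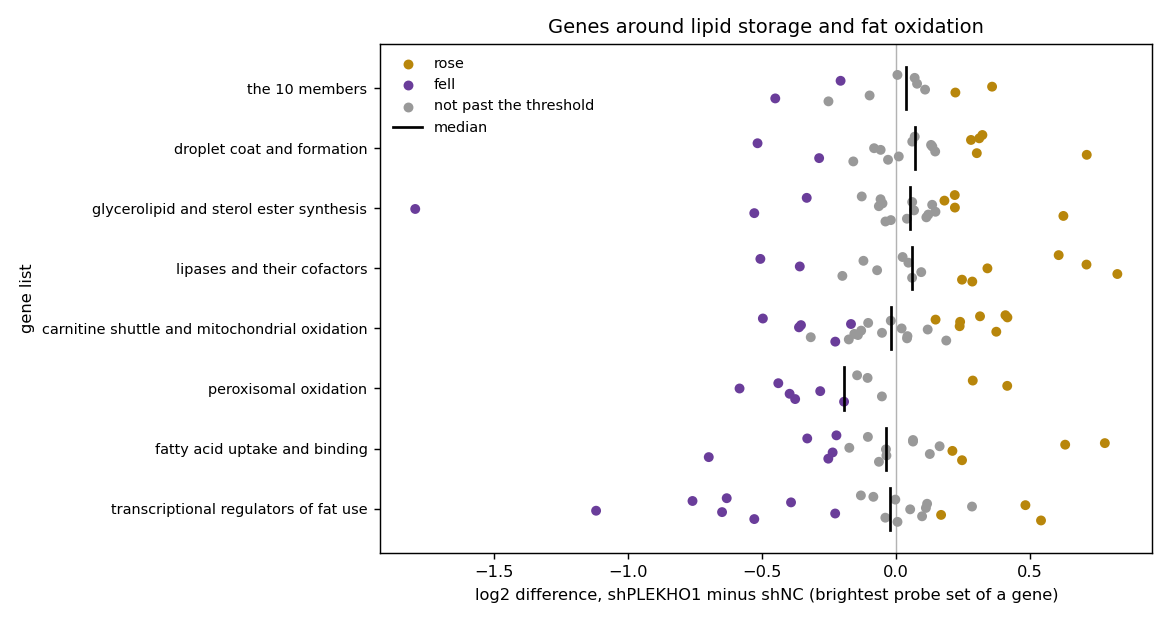
Log2 difference (shPLEKHO1 minus shNC) of each gene by its brightest probe set, for the 10 members and the 7 lists, coloured by whether it rose, fell or did not pass, with a line at each median. The members lie between -0.45 and 0.36, and AGPAT5 at -1.80 is the point farthest from 0.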

How the data were processed

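The 6 arrays were single-colour Affymetrix arrays. Affymetrix Expression Console made the deposited values, according to the submitters' processing notes; which version or algorithm was used, and whether arrays were normalized to each other, is not given in the sources used here. Linear intensity values, 1 per probe set, are what the authors deposited; they lie between 4.33 and 19770, with no value at or below 0. Dim genes may show smaller folds than they have, since background may remain in these values. Groups were taken from the genotype labels.

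Of 49395 probe sets, 44988 had exactly 1 gene symbol and were no controls; symbols were updated by Entrez identifier. Values were taken as log2(intensity + 1), quantile-normalized over the table and fitted by group alone with limma (3.58.1, in R 4.3.3; lmFit, eBayes), using Benjamini-Hochberg adjustment and a threshold of 0.05. Probe sets of 1 gene were compared through within-array differences from the brightest set, over 26856 sets. For lists, 125 of 138 different genes were among those tested. The members and lists were chosen with earlier results of these data known. Named genes are all members, PLEKHO1 and, per list, up to 4 that passed with the smallest p. PLIN1, ABHD5, EPAS1, ECI1 and the cell type markers given by name were picked after their values were seen. The steps were tested on simulated data.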

Additional observations from a re-analysis of the deposited data

How the results depend on the processing

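The alternatives were median centring, no normalization between arrays, no pseudocount, a pseudocount of 16, leaving out the lowest 30% of probe sets, a trended variance prior fitted robustly, weights per array, a replicate block, averaging a gene's probe sets (for the members added after seeing the data, as were all alternatives for ABHD5, EPAS1, PLIN1 and the markers that passed) and each array left out in turn. Of the members' probe sets, 4 to 6 passed when 1 array was left out, and 4 to 7 over all alternatives, against 6 as reported. Over all probe sets 12572 to 13459 passed with 1 array left out, against 14858. Of the glycerolipid and sterol ester genes 4 to 6 passed with 1 array left out, against 7. With the replicate block 6 member probe sets passed, and 12937 over all; of the members, PLEKHO1, the genes named from lists and the markers that passed, it ended the call of ABHD5 (limma adjusted p = 0.0643) and changed no other. The labels give no pairing. Deviations of same-numbered arrays from their group means correlated at -0.15, -0.15 and -0.04, and those of differently numbered arrays at -0.02 to 0.17. Deviations within a group are tied to each other, so these values cannot show whether any arrays shared a batch. The calls of PLIN3, both HILPDA sets and the brighter DGAT1 set held under every alternative run, with limma adjusted p of at most 0.00183 for PLIN3, 0.0383 for HILPDA and 0.00935 for DGAT1. The members' calls that were lost are those of PNPLA2 and CPT2, given above. Of the single genes and probe sets that passed, 0 changed sign under these alternatives. ECI1 was not among the single genes run under them. The cause of calls lost without 1 array was not tested. All 23 member probe sets had means below the highest background set, which is the one with the most GC. The GC content of the members' own probes was not used, so this comparison does not show how much of their intensity was background. PLIN2, PLIN3, LIPA and most MGLL sets were above the next highest background set, at 457.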
